A study of Drosophila melanogaster with 4 samples.

Results

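Cytochrome P450 genes were followed in the head transcriptome of old NelfA*/+ flies and their control siblings. The members were the genes of the count table whose symbol is Cyp with a family number and a letter, apart from Cyp4d21 and the cyclophilins, and whose counts summed to 10 or more over the 4 libraries. This gave 62 genes among 82 such symbols and among 13926 listed genes. They were grouped by the number after Cyp, with 13 genes in family 4, 21 in family 6, 4 in family 9, 6 in family 12, 4 in family 28 and 14 in other families. The rule used no difference between the genotypes.

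RNA was taken from pooled heads of D50 males (50 days old) of 2 genotypes. NelfA*/+ flies (2 libraries) carry the Nelf-A KG09483 P-element insertion on 1 chromosome, in a line backcrossed to w1118. Control siblings (+/+, 2 libraries) come from the same backcross and lack it. The labels give the genotypes as +/+; +/NELF-A* and +/+; +/+. The insertion is present in every tissue, so a difference in heads is not tied to a cell type. The libraries were poly(A)-selected, and the values are reads counted per gene.

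P450 enzymes are heme-thiolate monooxygenases that insert an oxygen atom into a wide range of substrates. The microsomal enzymes take their electrons from NADPH through the reductase Cpr, and the mitochondrial enzymes from an adrenodoxin-type ferredoxin. Insect P450s fall into the CYP2, CYP3, CYP4 and mitochondrial clans. Families 6, 9 and 28 belong to the CYP3 clan, which holds many detoxification enzymes. Family 4 belongs to the CYP4 clan, which includes fatty acid and hydrocarbon enzymes, and family 12 is mitochondrial. Fat body and oenocytes are among the fly tissues known for P450 expression.

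Between 42985746 and 45172099 reads were counted on genes in each library. Nelf-A, the mutated gene, had 2386 and 2398 normalized counts (counts scaled to a common library size) in NelfA*/+ heads and 3598 and 3365 in control heads, 68.7% of the control level (edgeR adjusted p = 0.0411, log2 fold change -0.54 ± 0.07 SE). Photoreceptor markers were abundant in every library, with summed normalized counts between 2122410 and 2528180 (6 of 7 markers, Arr2 being listed at 0). The midgut list, 27 genes of digestive proteases and NPC2-type sterol carriers, was uneven. Its summed normalized counts were 27043 and 3338 in NelfA*/+ replicates 1 and 2, against 127 and 151 in the control libraries, with Jon65Aii and gammaTry at 0 throughout.

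Which P450 genes the table can measure was examined first, because several well-known P450 genes were at 0 in it. Cyp4g1, the oenocyte enzyme that makes cuticular hydrocarbons, was listed at 0 in all 4 libraries, as were Cyp6a2, a DDT-resistance gene, and Cyp6d5, which is induced by xenobiotics. In all, 17 of the 82 P450 symbols stood at 0 in every library. Each of these 17 genes lies wholly inside another listed gene on BDGP6 (Ensembl annotation), 15 of them on the opposite strand and 2 on the same strand. Cyp4g1 (X, 467057 to 469335) lies inside CG32816, Cyp6a2 (2R, 6779749 to 6781491) inside Epac and Cyp6d5 (3R, 14029228 to 14031483) inside rdx. Tandem groups were lost in the same way, with Cyp4ac1, Cyp4ac2 and Cyp4ac3 inside tkv and Cyp4p1, Cyp4p2 and Cyp4p3 inside hig. None of the other 65 P450 genes was at 0 in every library. Of all listed genes, 99.9% of the 1830 protein-coding genes wholly inside another were at 0, against 5.20% of the other 12068. Zeros at such genes give no information on expression. Partial overlap touches further members: 862 of the 1759 exonic bases of Cyp6d2, 2457 of 4078 in Cyp317a1 and 1868 of 2787 in Cyp303a1 are free of any other listed gene, so their counts understate their levels.

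**Figure D1:**
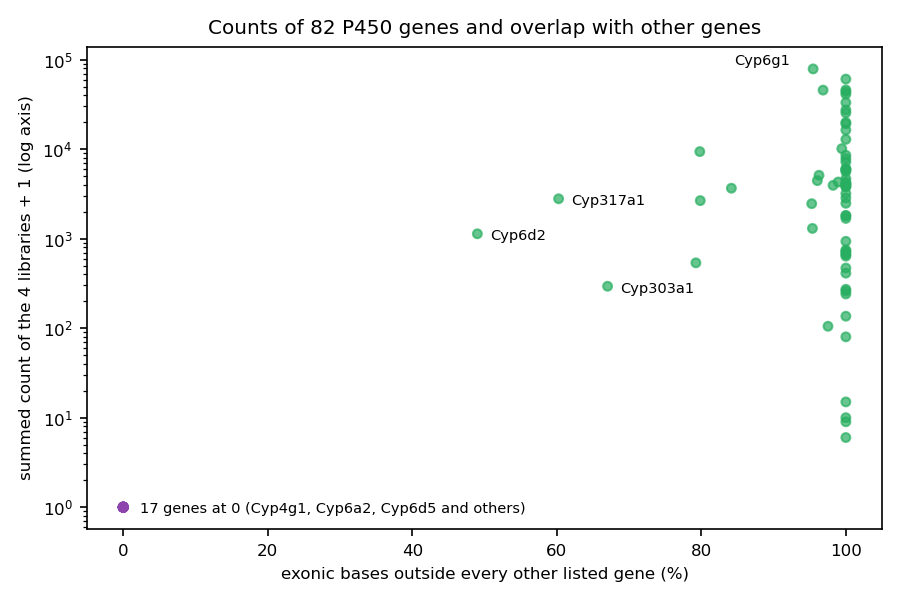
Summed counts of the 82 P450 genes, plus 1 and on a log axis, against the percentage of their exonic bases that no other listed gene covers. Each point is a gene. The 17 genes at 0 sit together at no free exonic base, and Cyp6d2 is the most overlapped gene that still has counts.

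A further 3 P450 genes had between 1 and 9 counts in all and were left out by the rule. These are Cyp313a2, Cyp313a5 and Cyp12d1-d. The last is the near-identical tandem copy of Cyp12d1-p, a gene induced by many xenobiotics, and reads that map to both copies were not counted. Cyp12d1-p itself had 96 and 42 counts in NelfA*/+ heads and 60 and 42 in control heads. Its level is therefore uncertain, and the genotypes overlapped.

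The measured members spanned a wide range of levels. To compare genes, normalized counts were turned into RPKM over the exonic bases that no other listed gene covers. Cyp6g1, the DDT and neonicotinoid resistance gene, was the highest, at 208 and 222 in NelfA*/+ heads and 231 and 233 in control heads. After it, on the mean of the 4 libraries, came Cyp28d1 (164), Cyp6w1 (142), Cyp9f2 (140), Cyp4e2 (136) and Cyp6a20 (128), the last known for its effect on male aggression. These 5 genes could not be put in order, since the libraries of each overlapped those of the next. Family 12 was led by Cyp12a4 (65.8), whose overexpression gives lufenuron resistance, and by Cyp12b2 (32.1). The other families were led by Cyp311a1 (22.4) and by Cyp309a1, at 19.9 in NelfA*/+ heads and 24.1 in control heads. At the low end were Cyp301a1 (0.310), a gene of adult cuticle formation, and Cyp303a1 (0.884), which is needed for sensory bristles. Cyp18a1, the ecdysteroid 26-hydroxylase that inactivates the moulting hormone, stood at 3.31. Cyp313a3 was the single member too low to test.

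**Figure D2:**
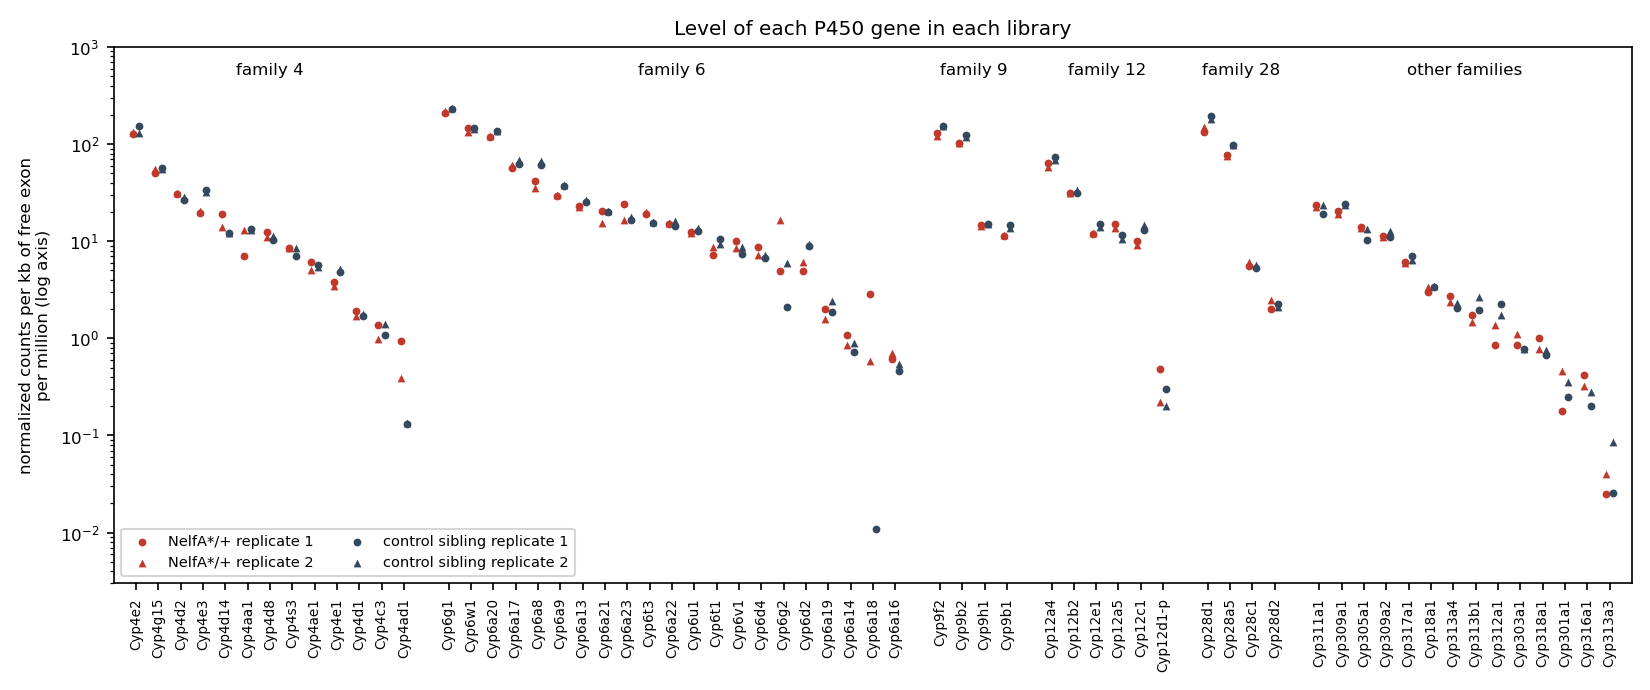
Level of each of the 62 members in each library, as RPKM over free exonic bases on a log axis, by family and ordered by mean level within it. Red points are NelfA*/+ libraries and dark points control siblings, with circles for replicate 1 and triangles for replicate 2. For most genes the 4 points lie close together, and Cyp6a18, Cyp6g2 and Cyp4ad1 stand out by their spread. Cyp6a18 is at 0 in control replicate 2, which a log axis cannot show.

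P450 genes together had fewer counts in NelfA*/+ heads. The normalized counts of the 62 members summed to 145641 and 145995 in NelfA*/+ libraries and to 163666 and 162964 in control libraries, a mean that is 10.7% lower. As a share of counts on genes this was 0.324% and 0.325% in NelfA*/+ libraries and 0.362% and 0.378% in control libraries. The difference came mostly from the abundant genes. The 13 members with a mean of 3000 counts or more held 76.0% of the pool and were 12.7% lower together, with 109540 ± 974 normalized counts in NelfA*/+ heads and 125539 ± 1805 in control heads (SD, n = 2 each). The other 49 summed to 36278 ± 724 in NelfA*/+ heads and 37776 ± 1309 in control heads (SD, n = 2 each). Of tissues known for P450 expression, the summed level of 5 fat body markers was 224714 and 235834 normalized counts in NelfA*/+ heads and 268173 and 216885 in control heads. That of 4 oenocyte markers was 1763 and 2019 in NelfA*/+ heads and 1888 and 2154 in control heads. Both sums overlapped between the genotypes. Single fat body markers were mixed, with 3 higher and 1 lower in NelfA*/+ heads without overlap (26.1% and 26.0% of all genes tested). Their median log2 fold change was 0.30 over the 4 tested, none called by edgeR. The summed level of 4 Malpighian tubule markers was 2268 and 1173 in NelfA*/+ heads and 1096 and 1008 in control heads, with no overlap. The part of these tissues in the P450 counts was not tested. In pooled heads, fewer cells of a type and less RNA per cell cannot be told apart.

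Single genes were then tested between the genotypes with edgeR's quasi-likelihood test, adjusted over all 9609 genes with enough counts, of which 61 were members. At an adjusted p below 0.05, 2 members were called, both lower in NelfA*/+ heads. This is 3.28% of the tested members, beside 1.87% of all genes tested (0.645% higher and 1.23% lower). None was called higher. At an unadjusted p below 0.05, 18 members were lower and 5 higher, 37.7% of members beside 20.3% of all genes. DESeq2's Wald test called 11 members, 9 lower and 2 higher, beside 8.98% of all genes. One of the higher genes in both counts is Cyp6a18, which was near 0 in control heads and reached the test only through its NelfA*/+ counts. It is also among the calls given below without a NelfA*/+ library, and its calls are not read as a result. Among the 60 members with at least 10 counts in every library 18 were lower and 4 higher at an unadjusted p below 0.05, and DESeq2 called 9 lower and 1 higher. The calls moved with single libraries: edgeR called 5 members without NelfA*/+ replicate 1 (412 of all 9788 genes tested), 9 without NelfA*/+ replicate 2 (554 of 9869) and none without control replicate 1 (2 of 9884) or control replicate 2 (2 of 9841).

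Of the 61 tested members 35 had a fitted log2 fold change below 0, 57.4% of them beside 47.7% of all genes, and their median was -0.065 beside 0.011 over all genes tested. NelfA*/+ heads were below control heads with no overlap in 27 members (44.3%, beside 26.0% of all genes tested) and above in 12 (19.7%, beside 26.1%). Among the 60 members without Cyp6a18 the numbers were 27 and 11, with a median of -0.074. In abundance ranges chosen after the values were seen, the share below 0 was largest in the highest range and smallest in the lowest. The ranges between did not follow this order. Below 0 were 12 of the 13 members with a mean count of 3000 or more, 9 of 16 between 1000 and 3000, 11 of 17 between 200 and 1000 and 3 of 15 under 200. The lowest range includes Cyp6a18. In the same ranges, from high to low, 42.7%, 50.3%, 52.4% and 45.6% of all tested genes were below 0. The genes were measured in the same 4 pools and are not replicates of the genotype.

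**Figure D3:**
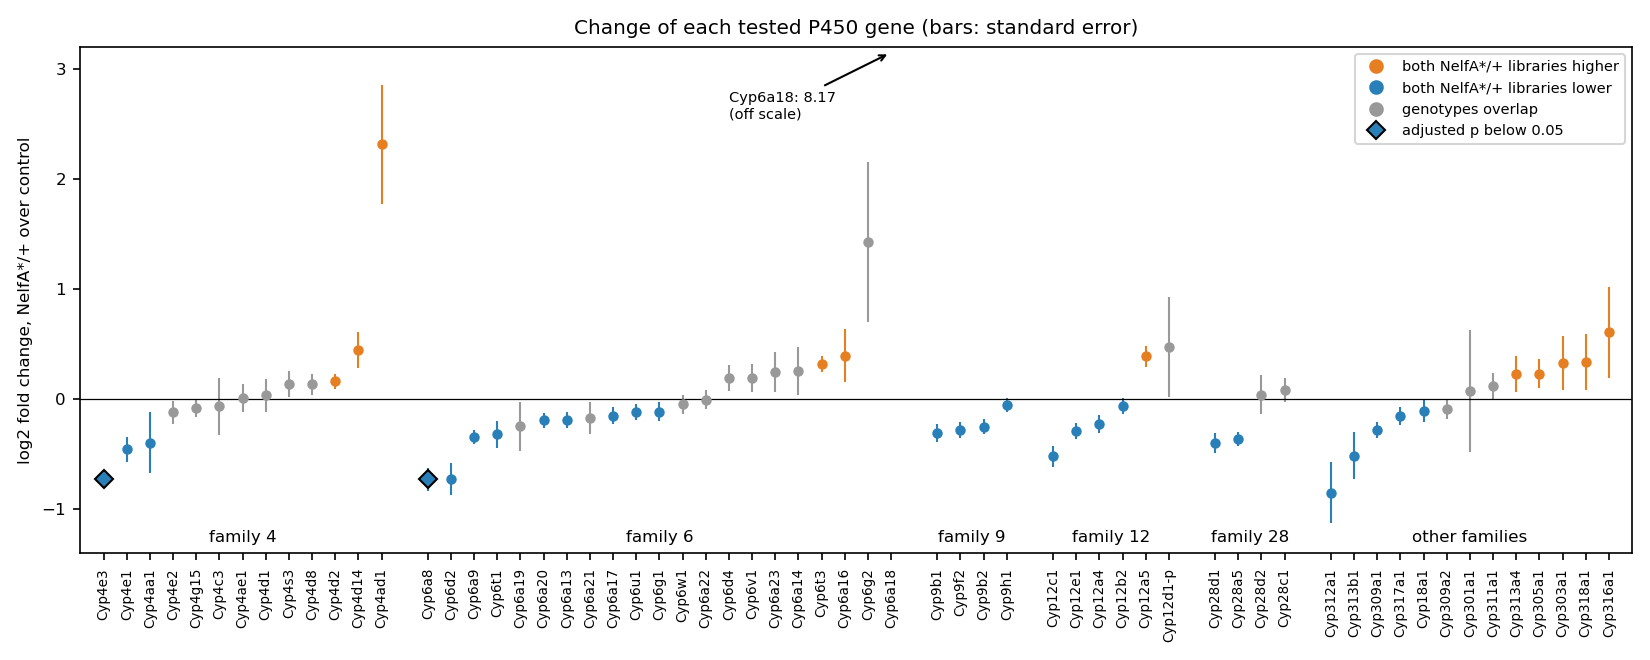
Log2 fold change (NelfA*/+ over control sibling) of the 61 tested members with its standard error, by family. Colours mark genes whose genotypes do not overlap, and outlined diamonds the 2 genes past an adjusted p of 0.05. All 4 family 9 genes lie below 0. Cyp6a18, at 8.17, is off the scale.

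Family 4 held the change with the smallest p, that of Cyp4e3 (2L, 9747839 to 9750071), a gene linked to permethrin tolerance. It had 1564 and 1649 normalized counts in NelfA*/+ heads, against 2700 and 2611 in control heads. Both mutant libraries were well below both controls, by far more than replicates differed. Cyp4e3 fell by 0.72 on the log2 scale (SE 0.07, adjusted p = 0.0256), to 60.5% of the control level. The adjusted p was 4.3e-10 in DESeq2 and 0.0256 in limma-voom, and the call was lost without control replicate 1 (0.189) or control replicate 2 (0.134).

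No other family 4 gene was called by edgeR, and DESeq2 called 1 more, Cyp4ad1. The relatives of Cyp4e3, Cyp4e1 and Cyp4e2, which are neighbours on 2R, had log2 fold changes of -0.45 (adjusted p = 0.125) and -0.12 (adjusted p = 0.592). Cyp4e2, the most abundant member of the family, had 10702 and 11357 normalized counts in NelfA*/+ heads and 12969 and 11004 in control heads, so that the genotypes overlapped. Cyp4g15, a close relative of Cyp4g1 that is expressed in the nervous system, had 5845 and 6511 in NelfA*/+ heads and 6624 and 6467 in control heads, which also overlapped. Cyp4d14 had 1438 and 1041 in NelfA*/+ heads and 915 and 904 in control heads. This gave a log2 fold change of 0.45 (SE 0.16, adjusted p = 0.223). Without NelfA*/+ replicate 2, the lower of its mutant libraries, the log2 fold change was 0.66, and without replicate 1 it was 0.20. Of the 13 genes of this family 6 were below 0, beside 47.7% of all genes tested. Their log2 fold changes ranged from -0.72 to 2.31, with a median of 0.012 over the 13.

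Family 6, the largest family, held the other called gene. Of its 21 genes 13 were below 0 (median -0.11), 9 of them with no overlap between the genotypes, and 3 were higher with no overlap. Beside this, 47.7% of all genes tested were below 0, and 26.0% were lower and 26.1% higher with no overlap. Cyp6a8 (2R, 14887171 to 14889010), a xenobiotic-inducible gene raised in insecticide-resistant strains, had 3314 and 2810 normalized counts in NelfA*/+ heads, against 4884 and 5256 in control heads. The replicates of each genotype lay closer to each other than to the other genotype. Cyp6a8 fell by 0.73 on the log2 scale (SE 0.10, adjusted p = 0.0481), to 60.4% of the control level. The call is narrow. It held in DESeq2 (adjusted p = 1.1e-06) but not in limma-voom (0.0576), without the filter on low counts (0.0716), or without control replicate 1 (0.263) or control replicate 2 (0.223).

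Cyp6a8 is the last of 8 Cyp6a genes in a tandem array on 2R, which Cyp317a1 follows (14871366 to 14903095, 31.7 kb). In genome order the log2 fold changes were -0.0025 for Cyp6a22, -0.15 for Cyp6a17, a gene with a role in temperature preference, 0.25 for Cyp6a23, -0.25 for Cyp6a19, -0.34 for Cyp6a9, -0.19 for Cyp6a20, -0.17 for Cyp6a21, -0.73 for Cyp6a8 and -0.15 for Cyp317a1. Thus 8 of the 9 were below 0, beside 47.7% of all genes tested, though Cyp6a22 was level within its error (SE 0.09). Cyp6a8 was the only one called by edgeR. Cyp6a9 had 2038 and 2093 normalized counts in NelfA*/+ heads and 2608 and 2636 in control heads (adjusted p = 0.0776 in edgeR and 0.00607 in DESeq2). Cyp6a20 had 9458 and 9729 in NelfA*/+ heads and 10933 and 10986 in control heads (adjusted p = 0.222). For both the genotypes did not overlap. Cyp6a9 and Cyp6a19 overlap each other, and the tandem copies are related in sequence, so reads between them may be split or lost. Cyp6a22, Cyp6a23, Cyp6a19, Cyp6a9 and Cyp6a21 are named for their place in the array.

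**Figure D4:**
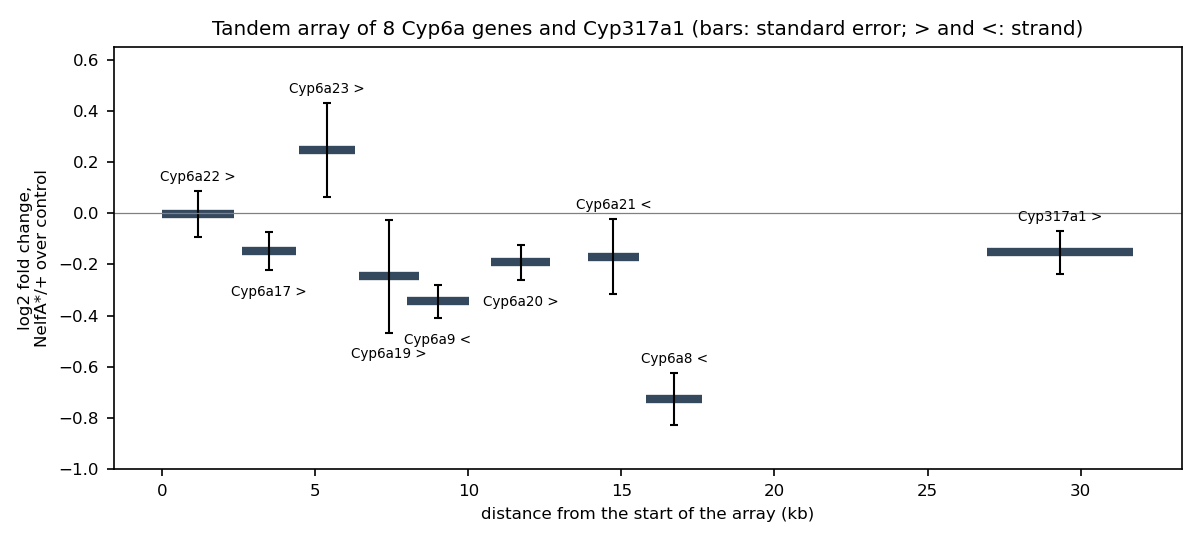
Log2 fold change (NelfA*/+ over control sibling) along the tandem array on 2R against the distance from its start in kb. Each thick bar spans a gene, the thin bars are standard errors and the arrowheads give the strand. Cyp6a8, at -0.73, lies below the other genes, which range from -0.34 to 0.25.

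The most abundant family 6 genes were called by neither edgeR nor DESeq2. Cyp6g1 had 18306 and 19562 normalized counts in NelfA*/+ heads and 20396 and 20569 in control heads, a log2 fold change of -0.11 (SE 0.08, adjusted p = 0.526). Cyp6w1 had 15585 and 14278 in NelfA*/+ heads and 15556 and 15278 in control heads, where the genotypes overlapped (adjusted p = 0.814). Cyp6d2, linked to camptothecin tolerance, had 190 and 235 in NelfA*/+ heads and 345 and 358 in control heads. Its log2 fold change of -0.73 was as large as that of Cyp6a8 but less certain (SE 0.15, adjusted p = 0.0894 in edgeR and 0.0132 in DESeq2). Without NelfA*/+ replicate 2 the log2 fold change of Cyp6d2 was -0.89, and without replicate 1 it was -0.58. Cyp6t3, a gene with a role in ecdysone synthesis that follows Cyp6g1 and Cyp6g2 on 2R, had 1386 and 1460 in NelfA*/+ heads, against 1119 and 1158 in control heads. Both mutant libraries were higher (log2 fold change 0.32, SE 0.07, adjusted p = 0.101).

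Cyp6g2 varied widely between replicates of both genotypes. This gene, expressed in the corpora allata and linked to juvenile hormone synthesis, had 419 and 1403 normalized counts in NelfA*/+ heads and 176 and 501 in control heads. Replicate 2 was higher than replicate 1 in both genotypes, by 3.35 times in NelfA*/+ and 2.86 times in control heads, and the genotypes overlapped (log2 fold change 1.43, SE 0.73, adjusted p = 0.355). Its log2 fold change was 2.05 without NelfA*/+ replicate 1 and 0.30 without replicate 2. Corpora cardiaca and corpora allata, neuroendocrine glands near the brain, were followed with 2 marker genes chosen after these values were seen. Akh, the corpora cardiaca hormone gene, had 752 and 3229 normalized counts in NelfA*/+ heads and 90.3 and 722 in control heads. The library order was the same as for Cyp6g2 at the top and bottom. The corpora allata enzyme gene jhamt had 487 and 788 in NelfA*/+ heads and 327 and 473 in control heads. The part of these glands in the Cyp6g2 counts was not tested.

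Cyp6a18 had the largest fold change of all members. Its counts were 530 and 105 in NelfA*/+ heads, against 2 and 0 in control heads. Summed, this is 635 against 2, a ratio of 330.0 after scaling (exact 95% interval 91.0 to 2731, which covers counting error only), yet NelfA*/+ replicates 1 and 2 differed by 4.80 times. As it passed the filter only through the genotype where it was high, its p-values are not given. Cyp4ad1, named after its values were seen, had the next largest, with 80 and 32 counts in NelfA*/+ heads and 11 and 12 in control heads (log2 fold change 2.31, SE 0.54, adjusted p = 0.112 in edgeR and 0.0143 in DESeq2). Both genes were higher in NelfA*/+ replicate 1 than in replicate 2. So were 22 of the 25 midgut markers with counts, by 8.10 times in sum. Of these 25, 12 were higher in both NelfA*/+ libraries than in both controls, beside 26.1% of all genes tested. These shares are over unlike sets, since only 11 of the midgut genes had enough counts to be tested. None of the 25 exceeded 45.1 normalized counts in a control library. The part of midgut RNA in the Cyp6a18 and Cyp4ad1 counts was not tested.

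Family 9 had values below 0 throughout, by small amounts, with Cyp9h1 nearly level. In all 4 genes the genotypes did not overlap, NelfA*/+ being lower, as in 26.0% of all genes tested. None was called by edgeR. Cyp9f2, the most abundant of them, had 10166 and 9598 normalized counts in NelfA*/+ heads, against 11891 and 12081 in control heads. Its log2 fold change was -0.28 (SE 0.07, adjusted p = 0.137 in edgeR and 0.0146 in DESeq2). Cyp9b2 had 7560 and 7554 in NelfA*/+ heads and 9150 and 8821 in control heads, a log2 fold change of -0.25 (adjusted p = 0.137 in edgeR and 0.0330 in DESeq2). Its tandem neighbour Cyp9b1 had a log2 fold change of -0.31 (adjusted p = 0.126), and Cyp9h1, the fourth gene of the family, one of -0.049 (adjusted p = 0.724). Cyp9c1 and Cyp9f3 are among the genes at 0 and could not be followed.

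Family 28 split by abundance. Its abundant genes were lower in NelfA*/+ heads. Cyp28d1 (2L, 5210460 to 5212445) had 9274 and 10427 normalized counts in NelfA*/+ heads, against 13426 and 12510 in control heads (log2 fold change -0.40, SE 0.09, adjusted p = 0.113 in edgeR and 0.00840 in DESeq2). Cyp28a5 had 6027 and 5953 in NelfA*/+ heads, against 7651 and 7723 in control heads (-0.36, SE 0.06, adjusted p = 0.0682 in edgeR and 0.000207 in DESeq2). In both genes NelfA*/+ heads were lower without overlap, as in 26.0% of all genes tested. The replicates were close in Cyp28a5 and further apart in Cyp28d1. The scarce genes Cyp28c1 (0.085, adjusted p = 0.725) and Cyp28d2 (0.041, adjusted p = 0.927) overlapped between the genotypes. Cyp28d2 lies next to Cyp28d1 on 2L, so that tandem neighbours differed in their values.

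**Figure D5:**
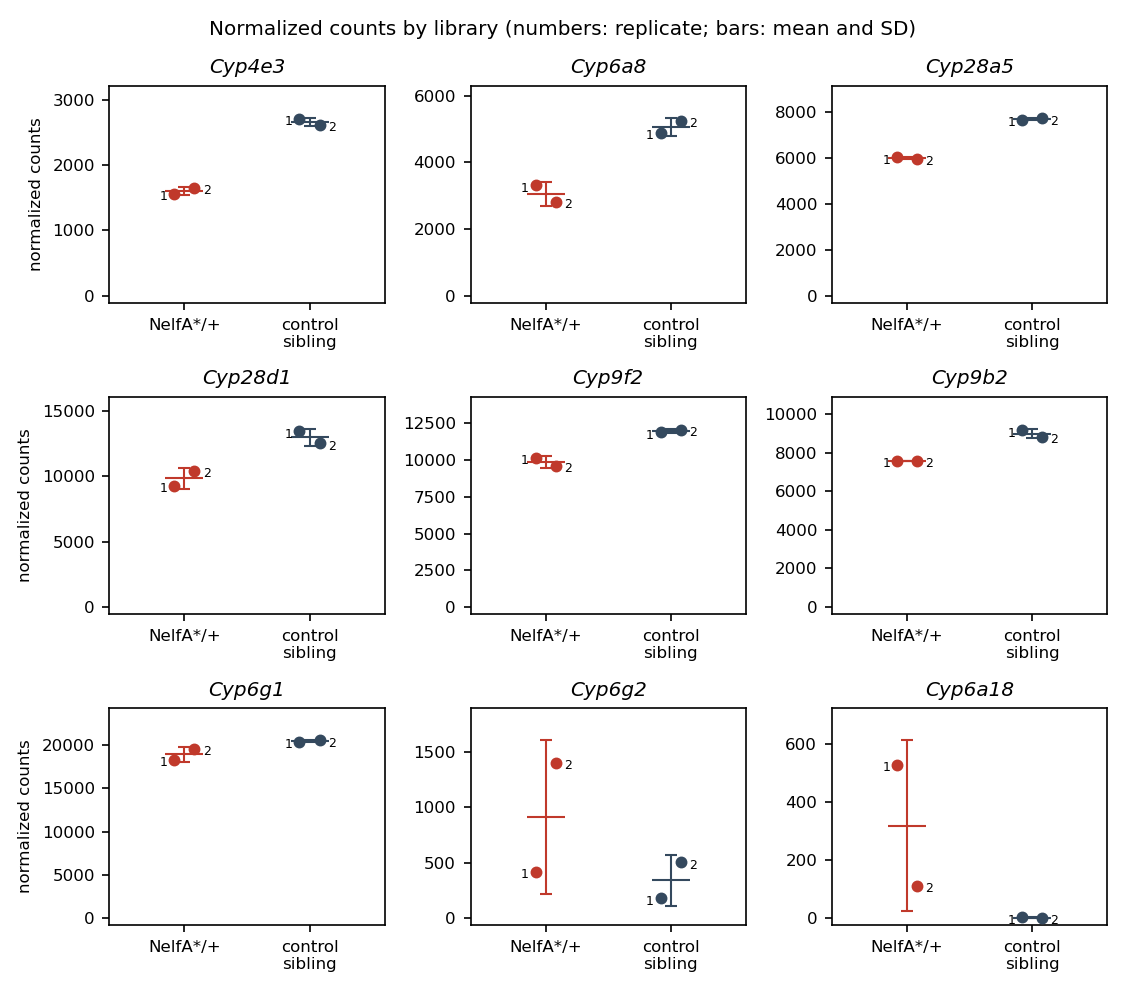
Normalized counts of 9 P450 genes by library, with NelfA*/+ left of control sibling, the replicate number beside each point, and the mean and SD of 2 libraries. Each axis starts just below 0. Cyp4e3 and Cyp6a8 show separate genotypes, with closer replicates in Cyp4e3, while Cyp6g2 and Cyp6a18 differ within a genotype by more than 2-fold.

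In the mitochondrial family 12 both directions occurred, with 4 genes lower and 1 higher without overlap (26.0% and 26.1% of all genes tested). Cyp12c1 had 851 and 766 normalized counts in NelfA*/+ heads, against 1093 and 1220 in control heads (log2 fold change -0.52, SE 0.09, adjusted p = 0.0739 in edgeR and 0.00552 in DESeq2). Cyp12a5 had 1232 and 1107 in NelfA*/+ heads, against 935 and 853 in control heads (0.39, SE 0.09, adjusted p = 0.112 in edgeR and 0.0529 in DESeq2). Its tandem neighbour Cyp12a4 on 3R had 4821 and 4345 in NelfA*/+ heads and 5567 and 5169 in control heads, so that the pair had opposite signs (-0.23, adjusted p = 0.223). Cyp12b2 was nearly level, at -0.063 (adjusted p = 0.677).

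Of the 13 tested genes in other families, 6 were below 0, beside 47.7% of all genes tested. The genotypes did not overlap in 5 lower and 5 higher genes (26.0% and 26.1% of all genes tested). Cyp312a1 had 127 and 205 normalized counts in NelfA*/+ heads, against 340 and 259 in control heads, a log2 fold change of -0.85 (SE 0.28, adjusted p = 0.194). Without NelfA*/+ replicate 2, the mutant library nearer the controls, it was -1.23, and without replicate 1 it was -0.55. Cyp309a1 had a log2 fold change of -0.28 (adjusted p = 0.134), Cyp311a1 one of 0.12 (0.647) and Cyp305a1 one of 0.23 (0.407). For the hormone and cuticle genes, Cyp18a1 had 411 and 455 in NelfA*/+ heads and 457 and 474 in control heads (adjusted p = 0.625), and Cyp303a1 had 70.7 and 93.0 in NelfA*/+ heads and 65.2 and 65.3 in control heads (adjusted p = 0.531). Cyp301a1, with 14.9 and 38.7 in NelfA*/+ heads and 21.1 and 29.8 in control heads, overlapped between the genotypes.

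By clan, 22 of 32 tested genes of the CYP3 clan were below 0, with a median log2 fold change of -0.13, against 8 of 19 in the CYP4 clan (0.039), 4 of 7 in the mitochondrial clan (-0.063) and 1 of 3 in the CYP2 clan (0.23). Over all genes tested, 47.7% were below 0 and the median was 0.011. Whether the clans differ was not tested. Position was shared by many genes. Of the 82 P450 symbols, 45 lie in 16 groups with gaps of at most 10000 bases, and 34 lie on 2R. The member nearest to Nelf-A (3R, 21223704 to 21229512) is Cyp6d4, 1.475 Mb away. It overlapped between the genotypes (log2 fold change 0.19, adjusted p = 0.453 in edgeR). Cyp12a5 and Cyp12a4, which start at 19132648 and 19135158, lie on the same arm. How far sequence of the original mutant line remains around the insertion was not tested.

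The genes that serve P450 enzymes were examined as lists outside the symbol rule. All 6 genes listed as electron donors were tested. None was called by edgeR and 2 were at an unadjusted p below 0.05 (1.87% and 20.3% of all genes tested). DESeq2 called 1, Cyt-b5-r, beside 8.98% of all genes. Cpr, the reductase of the microsomal enzymes, had 12229 and 11439 normalized counts in NelfA*/+ heads and 13402 and 13869 in control heads (log2 fold change -0.20, adjusted p = 0.245). Cyt-b5-r, a cytochrome b5-related gene, had 57130 and 54147 in NelfA*/+ heads and 69737 and 70176 in control heads (-0.33, adjusted p = 0.187 in edgeR and 0.000845 in DESeq2). Whether it passes electrons to P450 enzymes is not known from these data. In Cpr and Cyt-b5-r the genotypes did not overlap. Cyt-b5 had 14051 and 12151 in NelfA*/+ heads and 12365 and 13718 in control heads, which overlapped (0.0066, adjusted p = 0.984). The mitochondrial donors dare and Fdx1 had log2 fold changes of -0.11 and 0.012. Of 8 genes of heme synthesis and breakdown none was called by edgeR or DESeq2. An unadjusted p below 0.05 was reached by 2, beside 20.3% of all genes tested. Below 0 were 5, beside 47.7% of all genes tested, and the median of the 8 was -0.097. FeCH, which puts the iron into heme, had 2007 and 1951 normalized counts in NelfA*/+ heads and 2354 and 2392 in control heads (-0.26, adjusted p = 0.125). The heme oxygenase gene Ho had 1043 and 1124 in NelfA*/+ heads and 1282 and 1282 in control heads (-0.24, adjusted p = 0.169). Above 0 were 3 genes. Of these, Alas had 5138 and 4828 in NelfA*/+ heads and 4469 and 4684 in control heads (0.12, adjusted p = 0.393). Pbgs had 553 and 519 in NelfA*/+ heads and 517 and 516 in control heads (0.053, adjusted p = 0.783). Both were higher without overlap.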

How the data were processed

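Raw counts per gene were deposited by the authors, whose notes name Trim Galore for trimming, STAR 2.5 for alignment to BDGP6 and HTSeq-count for counting (mode and strand setting not given in the sources used here). HTSeq-count's summary lines were left out; reads overlapping more than one gene made up 7.47% to 8.00% of each library. The table of the authors' own DESeq2 comparison (fold changes and p-values) was not used. Counts were tested across all 9609 genes passing filterByExpr with edgeR 4.0.16 (R 4.3.3): TMM, glmQLFit and glmQLFTest on genotype, Benjamini-Hochberg adjustment, threshold 0.05. Standard errors (SE) are the log2 fold change over the square root of F. Normalized counts are counts scaled by TMM library size. DESeq2 1.42.0 was run on all genes, and limma-voom with limma 3.58.1. Steps were tested on simulated data. RPKM (level per length) is the normalized count per kilobase of free exonic sequence, scaled to the mean library size. Symbols were matched to the Ensembl annotation of BDGP6 for 13910 of 13926 genes. Precision comes from the spread between 2 libraries of pooled heads; the study calls them biological replicates. Named genes were those called, the 2 highest per length in each family, the largest change in each direction per family with a mean count of 100 or more, and 19 genes of known role; others were named after their values were seen or for their position. The members and lists were chosen with earlier results of these data known.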

Additional observations from a re-analysis of the deposited data

How the results depend on the processing

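The number of P450 genes called (2 in edgeR, none higher and 2 lower) moved with the test more than with the scaling. DESeq2's Wald test called 11 (2 higher, 9 lower), robust dispersions 4 (all lower), an adjusted p below 0.1 gave 7 (1 higher, 6 lower), and both limma-voom and no filter on low counts gave 1 (lower). Library size alone gave 3, of which 1 was higher. The higher gene at 0.1 and with library size alone was Cyp6a18, which reached the test only through its NelfA*/+ counts. It is also among the calls of DESeq2, the replicate block, the crossed pairing and the fits without a NelfA*/+ library. Its calls are not read as a result. Without single libraries the count ranged from 0 to 9, with 0 to 4 higher and 0 to 5 lower, while 2 (without either control library), 412 (without NelfA*/+ replicate 1) and 554 genes (without NelfA*/+ replicate 2) were called over all. With a lone library in a genotype, that library was assumed to vary like the other genotype's. Over the whole table DESeq2 called 911 genes and edgeR 180, with 82 without the filter, 118 in limma-voom, 359 with robust dispersions and 578 at an adjusted p below 0.1. The median log2 fold change of tested P450 genes was -0.065, with -0.094 for library size alone and -0.097 to -0.052 without single libraries. Of 402 values of 31 genes under other settings, 371 kept their side of the threshold, 9 of them uncalled and with a changed sign. A further 25 became called, and no called value changed sign. The 6 that lost the call were all of Cyp4e3 and Cyp6a8, the 2 called genes, so the values kept were mostly those of uncalled genes. Neither the labels nor the methods say whether the replicate numbers mark shared handling. Same-numbered libraries deviated with a correlation of -0.14 over 8398 genes with a mean count above 100. With 2 libraries per genotype this cannot settle the question. With the replicate block edgeR called 4 P450 genes (2 higher and 2 lower) and 297 in all. The higher genes were Cyp6a18 and Cyp6g2 (log2 fold change 1.38, SE 0.12, adjusted p = 0.00495), and Cyp6g2 was higher in NelfA*/+ in both same-numbered pairs. The crossed pairing, added after seeing the data, called 10 (1 higher, 9 lower) and 797 in all. Counts this low in 2 libraries per genotype limit genes under 200 counts, whose replicates differed by a median of 0.35 (NelfA*/+) and 0.28 (control) on the log2 scale.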

Other observations

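P450 enzymes under other symbols, those of ecdysteroid synthesis, were low in heads. Of 6 listed, 4 had enough counts to test, and none was called by edgeR or DESeq2 or reached an unadjusted p below 0.05. The values of spok, which acts early in ecdysone synthesis, were 81.6 and 132 normalized counts in NelfA*/+ heads and 224 and 97.0 in control heads (log2 fold change -0.59, adjusted p = 0.549). shd, the enzyme that makes 20-hydroxyecdysone, had 57.7 and 101 in NelfA*/+ heads and 64.2 and 73.0 in control heads (0.21, adjusted p = 0.775). Of the enzymes of the intermediate steps, phm had 29.9 and 14.6 in NelfA*/+ heads and 27.1 and 18.2 in control heads, and sad 27.9 and 37.6 in NelfA*/+ heads and 21.1 and 44.2 in control heads. In each of these 4 genes the genotypes overlapped. dib and spo had no more than 2 counts in any library.

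Of 10 listed transcription factors of the xenobiotic response and their partners, 9 were tested and none was called by edgeR or DESeq2. The gene ss alone had an unadjusted p below 0.05 (log2 fold change 0.23, adjusted p = 0.176), beside 20.3% of all genes tested. cnc, the Nrf2 homolog, had 22464 and 23224 normalized counts in NelfA*/+ heads and 24330 and 22977 in control heads (-0.050, adjusted p = 0.799), its inhibitor Keap1 had a log2 fold change of -0.081 (adjusted p = 0.685), and the nuclear receptor Hr96 one of 0.12 (adjusted p = 0.480). usp is listed at 0 in all 4 libraries and lies inside Actn.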
